A study of Arabidopsis thaliana with 6 samples.

Results

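The genes described here are those that the chloroplast chromosome of Arabidopsis thaliana carries outside the photosynthetic complexes: the genes of the plastid's own RNA polymerase and ribosome, and a handful for an intron maturase, a protease, fatty acid synthesis and the assembly of photosynthetic complexes. A probe set (the group of probes that measures 1 transcript on the array) was a member if the array annotation tied it to exactly 1 gene of the chloroplast chromosome whose symbol does not begin psa, psb, pet, atp, ndh or rbcL. This gave 26 genes, each with 1 probe set, out of 69 chloroplast genes with a probe set of their own, 13356 genes named in that way and 22746 probe sets in all. The lib mutant, 3 arrays, was compared with its wild type, 3 arrays. Both are in the Columbia-0 background, were 8 days old, grew untreated on vertical agar plates with sucrose, and were hybridised as 1 ATH1 array per sample. The title of the series links lib to a partial deficiency of isoleucine; the mutated gene and allele are not named in the labels. The labels call the 3 arrays of a group biological replicates. The sample labels give whole seedlings as the tissue and the design text gives roots, which was not settled here.

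Chloroplasts keep a small genome of bacterial descent and express it with their own machinery. The plastid-encoded polymerase, a multi-subunit enzyme of bacterial type whose core is made from the rpo genes, transcribes most photosynthesis genes, and a phage-type polymerase encoded in the nucleus transcribes housekeeping genes such as rpoB and accD. Many plastid genes lie in operons that are first copied as long joint transcripts and then cut. Translation uses a ribosome of bacterial type, whose proteins come partly from rps (small subunit) and rpl (large subunit) genes of the plastid and partly from the nucleus.

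Of the 26 genes, 9 were lower in lib and 0 were higher at an adjusted p under 0.05 (limma over all probe sets, Benjamini-Hochberg adjustment). In all, 10.3% of the probe sets were lower and 10.4% higher by the same rule, so 34.6% of these genes were lower against that background. The lower genes were rpoC1 of the polymerase and 8 of the 15 ribosomal protein genes: rps4, rps19 and rps3 of the small subunit, and rpl33, rpl14, rpl22, rpl36 and rpl16 of the large subunit. The changes were moderate, from 76.4% of the wild type level for rpl36 to 46.3% for rpl33 (ratios of geometric mean signals), and only rpl33 changed at least 2-fold. The log2 fold change, lib minus wild type, was below 0 for 24 of the 26 genes, where 53.4% of all probe sets were below 0. It was also below 0 for 34 of the 43 chloroplast-encoded photosynthesis genes, so this lean was not particular to the 26. Its median was -0.39 over the 26 genes and -0.04 over all probe sets. With lib replicate 3 left out, the median over the 26 genes was -0.14.

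The number of lower genes depended on the arrays and on the error model. The intensity trend in limma lets bright probe sets have a smaller error than dim ones. Without it 2 of the 26 genes were lower (rpl33 and rpoC1, both among the 9), where 5.21% of all probe sets were. The share of lower genes was then much nearer to that of all probe sets than with the trend. With lib replicate 1, 2 or 3 left out the counts of lower genes were 5, 6 and 6, and with wild type replicate 1, 2 or 3 left out they were 3, 4 and 8, against 1365 to 1866 of all 22746 probe sets. The calls of rpl33, rps4 and rpoC1 were made with each of the 6 arrays left out in turn.

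**Figure D1:**
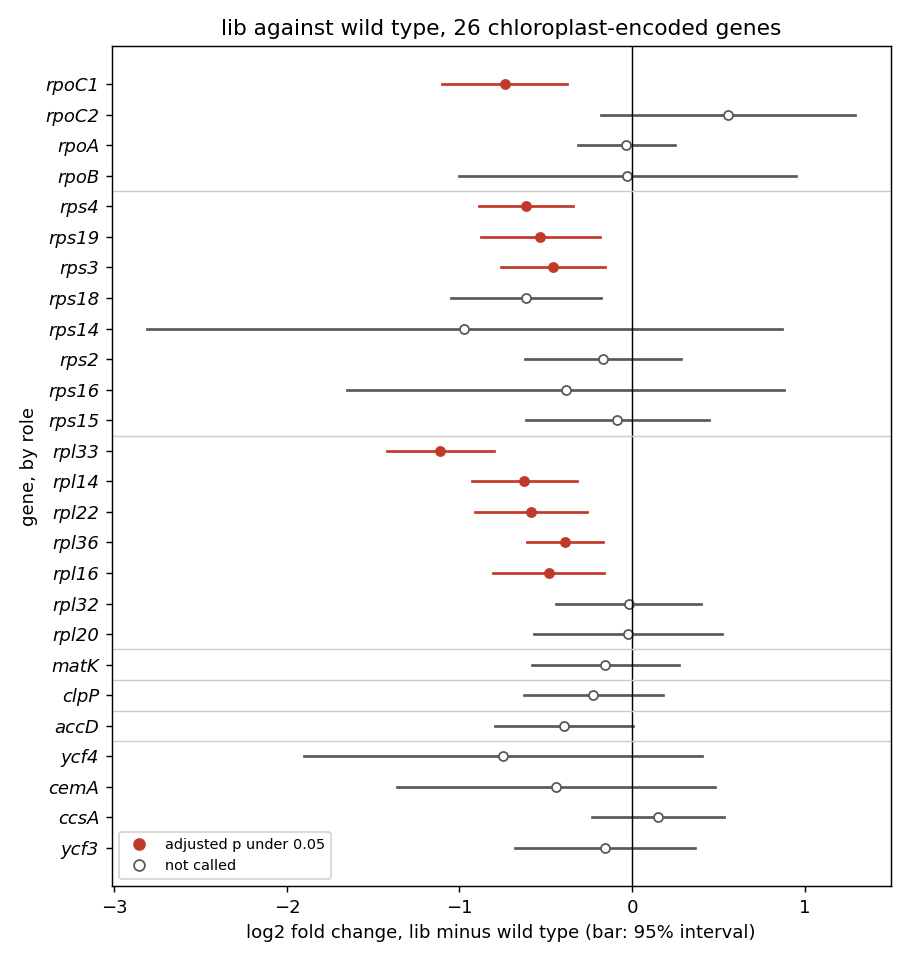
Log2 fold change of each gene, lib minus wild type (x axis), with its 95% interval as a bar; genes are grouped by role on the y axis, and filled red points have an adjusted p under 0.05. The 9 filled points, rpoC1 and 8 ribosomal protein genes, all lie below 0, and rpl33 at -1.11 lies farthest from 0 among them.

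Of 7 measured organ markers 3 were called lower in lib on the same arrays and 4 were not called. Lower calls made up 10.3% of all probe sets, and 16.8% of those with a mean signal above the median. Of 12 shoot markers 4 could be tied to a probe set of their own by gene identifier. The summed signal of these 4 was 1092 to 1492 on the lib arrays and 1658 to 2636 on the wild type arrays. LHCB4.1, a light-harvesting protein, had a log2 fold change of -0.62 (SE 0.18, limma adjusted p = 0.0376) and RCA, Rubisco activase, of -0.62 (SE 0.19, limma adjusted p = 0.0493); PRK stood at -0.70 and SBPASE at -0.28 without a call. Of 10 root markers 3 could be tied to a probe set in the same way. Their sum was 13542 to 15628 on lib arrays and 17811 to 21898 on wild type arrays. Most of that sum is PYK10, which was called lower at -0.47, while EXPA7 (0.20) and EXPA18 (0.00) were not called. These calls were weak: without the intensity trend 0 of the 7 markers were called, and with any 1 array left out 0 to 1 of the shoot markers and 0 of the root markers were. None of the 7 markers was at the floor of the scale, but PRK (27.6 to 79.7) and SBPASE (25.3 to 66.4) were dim in both genotypes. The part of organ proportions in the results was not tested, and in whole tissue fewer green cells and less plastid RNA per cell cannot be told apart. The labelling kit copies RNA from poly(A) tails, which in plastids are short and mark RNA for decay; whether tails or levels differed between genotypes was not tested.

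The RNA polymerase genes did not move as a group: of the 4, rpoC1 fell and rpoA, rpoB and rpoC2 were not called. The gene rpoC1 encodes the β′ subunit of the core. Its signals were 151, 142 and 165 on lib replicates 1 to 3 and 223, 298 and 247 on wild type replicates 1 to 3. All lib arrays lay below all wild type arrays, and the log2 fold change was -0.74 (SE 0.16, limma adjusted p = 0.0115). The neighbouring gene rpoC2, for the β″ subunit, had signals of 62.8, 43.6 and 52.9 in lib and 40.2, 27.6 and 41.1 in the wild type. These are dim signals, with every lib array above every wild type array by a narrow margin, and the log2 fold change was 0.56 (SE 0.33, 95% interval -0.18 to 1.29, limma adjusted p = 0.276). The next gene, rpoB, for the β subunit, was dimmer still, at 19.1, 23.2 and 22.5 in lib and 15.3, 23.1 and 29.9 in the wild type. Its groups overlapped and its 95% interval, -1.0 to 0.95 around -0.03, spans nearly every change within 2-fold. These 3 genes form the rpoB operon of land plants, so rpoC1 alone of its operon was called here. A test of the difference between the genes was not run. The α subunit gene, rpoA, was brightly measured, with signals of 762, 641 and 872 in lib and 748, 833 and 732 in the wild type. The groups overlapped, and the log2 fold change of -0.03 had a narrow 95% interval of -0.32 to 0.25.

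**Figure D2:**
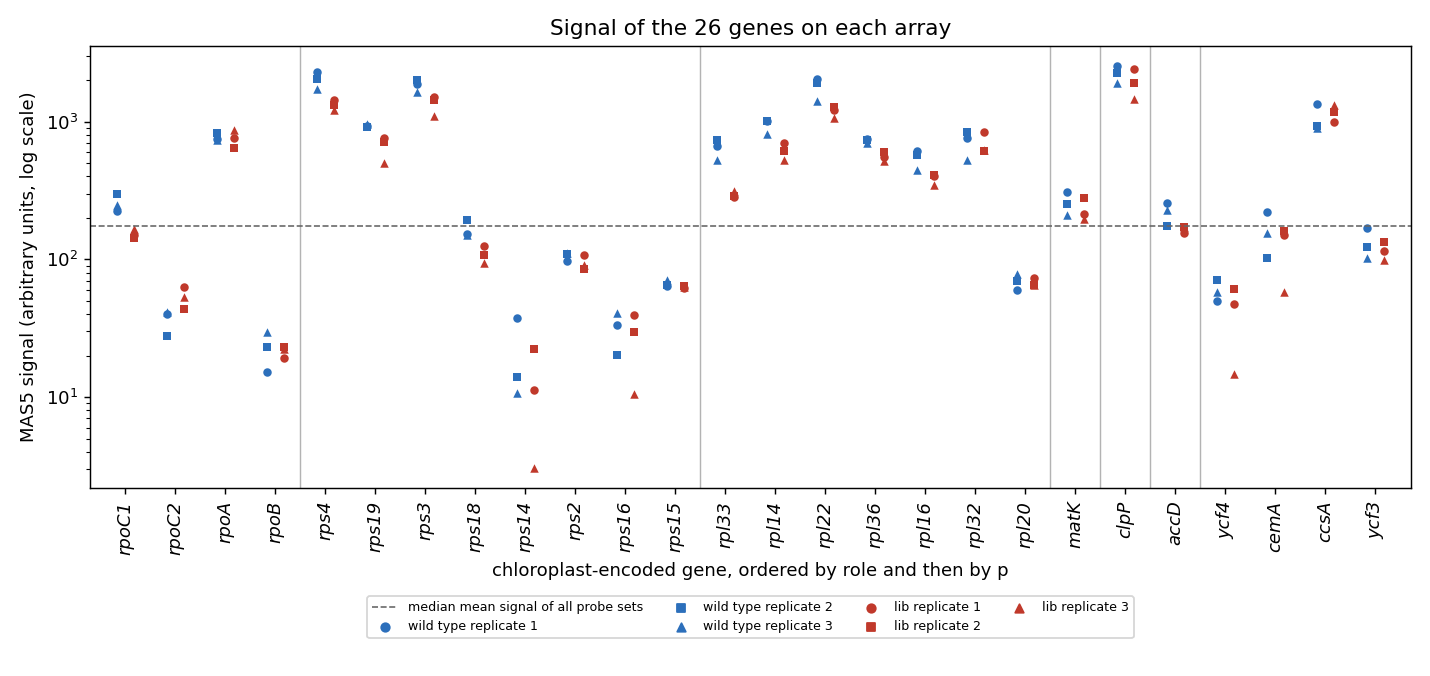
MAS5 signal on a log axis (y) of each of the 26 genes (x, ordered by role and then by p) on each array; blue symbols are wild type, red symbols lib, and the shape gives the replicate. The dashed line is the median of all probe sets, 175.8, above which all 9 called genes lie in their mean over the arrays.

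Among small subunit proteins, 3 of 8 genes fell and the median log2 fold change was -0.49. The gene rps4, whose product is among the first to bind the ribosomal RNA when the small subunit assembles in Escherichia coli, had signals of 1439, 1311 and 1213 in lib and 2299, 2057 and 1738 in the wild type. It fell to 65.3% of the wild type level, a log2 fold change of -0.61 (SE 0.12, limma adjusted p = 0.00718). In the gene rps19, for a protein of the head of the small subunit, signals were 765, 712 and 498 in lib and 928, 920.4 and 958 in the wild type. The wild type arrays lay close together and lib replicate 3 lay far below the other two, with a log2 fold change of -0.53 (SE 0.15, limma adjusted p = 0.0367). The gene rps3, whose product sits where the mRNA enters the bacterial ribosome, had signals of 1500.3, 1429 and 1097 in lib and 1862, 1991 and 1645 in the wild type, again with no overlap (log2 fold change -0.46, SE 0.13, limma adjusted p = 0.0382).

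The other 5 small subunit genes were not called. The gene rps18 had signals of 124, 107 and 93.6 in lib and 153, 192 and 151 in the wild type, so its groups did not overlap either, and its log2 fold change of -0.61 was as large as that of rps4 but narrowly missed the threshold (SE 0.19, limma adjusted p = 0.0519). With log2(signal + 16) or quantile normalization it passed, at adjusted p-values of 0.0485 and 0.0489, within a range of 0.0485 to 0.158 over its alternatives. The genes rps2 (-0.17) and rps15 (-0.09) stood close to 0. The signals of rps15 spanned only 61.6 to 63.9 on lib arrays, against 64.1 to 71.1 on wild type arrays, a gap far smaller than its error in the model. The genes rps14 (-0.97, SE 0.81) and rps16 (-0.39, SE 0.56) were near the floor of the scale, with signals of 3.06 to 37.8 and 10.5 to 40.8 over the 6 arrays, and no change of these genes could be resolved.

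Of the large subunit genes 5 of 7 fell, with a median log2 fold change of -0.48, close to the -0.49 of the small subunit; the difference in calls between the subunits was not tested. The farthest fall was that of rpl33, for a small protein that tobacco plastids can do without except in the cold. Its signals were 284, 287 and 312 in lib and 667, 729.9 and 526 in the wild type. The lib arrays were nearly alike and far below the lowest wild type array, with a log2 fold change of -1.11 (SE 0.14, 95% interval -1.42 to -0.80, limma adjusted p = 0.000832). The 2-fold lower calls over the whole table made up 2.50% of the probe sets. For rpl14, whose product lies at the interface between the subunits of the bacterial ribosome, signals were 702, 611 and 529 in lib and 1007, 1016 and 811 in the wild type (log2 fold change -0.62, SE 0.13, limma adjusted p = 0.0111). For rpl22, whose product lines the exit tunnel of the bacterial ribosome, they were 1205, 1272 and 1065 in lib and 2032, 1923 and 1406 in the wild type (-0.58, SE 0.14, limma adjusted p = 0.0201). Neither gene's groups overlapped. The gene rpl36, for one of the smallest ribosomal proteins, had 556, 598 and 515 in lib and 743, 731 and 705 in the wild type, the smallest called change at -0.39 with the smallest error (SE 0.10, limma adjusted p = 0.0215). The gene rpl16, for a protein close to the catalytic centre of the bacterial ribosome, had 400.4, 408 and 346 in lib and 611, 572 and 442 in the wild type (-0.48, SE 0.14, limma adjusted p = 0.0409). In both, every lib array was below every wild type array. The remaining genes, rpl32 and rpl20, both stood at -0.02; rpl32 was bright, with signals of 846, 609.9 and 624 in lib and 757, 837 and 530.1 in the wild type, and its 95% interval was -0.44 to 0.40.

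Read along the chromosome, 6 of the 9 lower genes are neighbours among the measured genes. In the order of the TAIR10.1 gene table, the measured genes rps19, rpl22, rps3, rpl16, rpl14, rpl36 and rpoA follow each other, a cluster that is known in plants as part of a ribosomal protein operon. The 6 measured ribosomal protein genes of the run all fell, with log2 fold changes between -0.62 and -0.39, while rpoA at its end stood at -0.03. The run was singled out, and rpoA set beside it, after their values were seen. A gap between them in the mean of the lib arrays was built into that choice and is no separate evidence. Averaged over these 6 genes, the log2 signal minus the wild type mean was -0.39, -0.42 and -0.72 on lib replicates 1 to 3 and 0.09, 0.07 and -0.16 on wild type replicates 1 to 3. For rpoA the same quantity was -0.01, -0.27 and 0.18 in lib and -0.04, 0.11 and -0.07 in the wild type. The mean of the run minus rpoA was -0.38, -0.15 and -0.90 on the lib arrays, against 0.13, -0.04 and -0.09 on the wild type arrays. Single calls in the run were not stable: over the alternatives the adjusted p of rps19 ranged from 0.0174 to 0.136, of rpl22 from 0.00529 to 0.103, of rps3 from 0.0198 to 0.141, of rpl16 from 0.0145 to 0.142, of rpl14 from 0.00471 to 0.0719 and of rpl36 from 0.0125 to 0.0786. Their fold changes were below 0 under every alternative run.

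**Figure D3:**
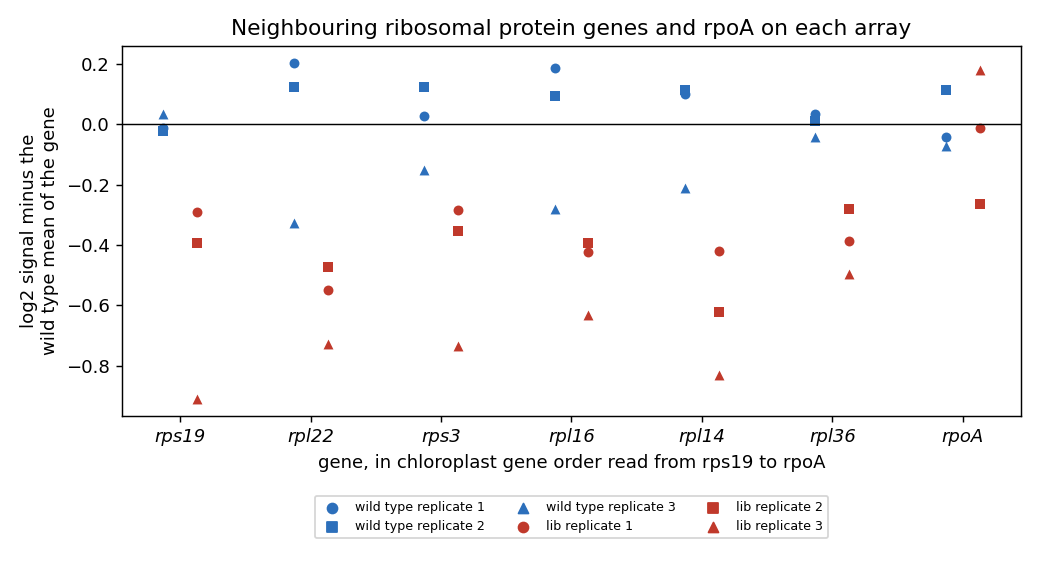
Log2 signal minus the wild type mean of the same gene (y) for 6 neighbouring ribosomal protein genes and rpoA (x, in chloroplast gene order); blue is wild type, red is lib, and the shape gives the replicate. For the 6 ribosomal protein genes all lib arrays lie below all wild type arrays, and for rpoA the groups overlap.

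A shorter stretch of neighbours holds the farthest fall. The gene rpl33 lies between psaJ, a photosystem I gene outside the set, and rps18. The gene psaJ, named after its value was seen, stood at -1.10 (SE 0.30, limma adjusted p = 0.0288), with signals of 142, 127 and 149 in lib and 373, 410.3 and 172.5 in the wild type. With rpl33 at -1.11 and rps18 at -0.61 on its other side, the 3 genes had non-overlapping groups, and rps18 was not called. The next gene in the table, rpl20, stood at -0.02 with dim signals of 59.9 to 78.4 over the 6 arrays. Fold changes below 0 were common along the chromosome, with 24 of the 26 genes and 34 of the 43 photosynthesis genes. In the cluster psaI, ycf4, cemA and petA all 4 fold changes were below 0. The photosynthesis genes psaI (-0.54, SE 0.15) and petA (-0.72) at its ends were called lower, and ycf4 (-0.75, SE 0.51) and cemA (-0.44, SE 0.41) between them had wider errors and were not called; psaI was also named after its value was seen.

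**Figure D4:**
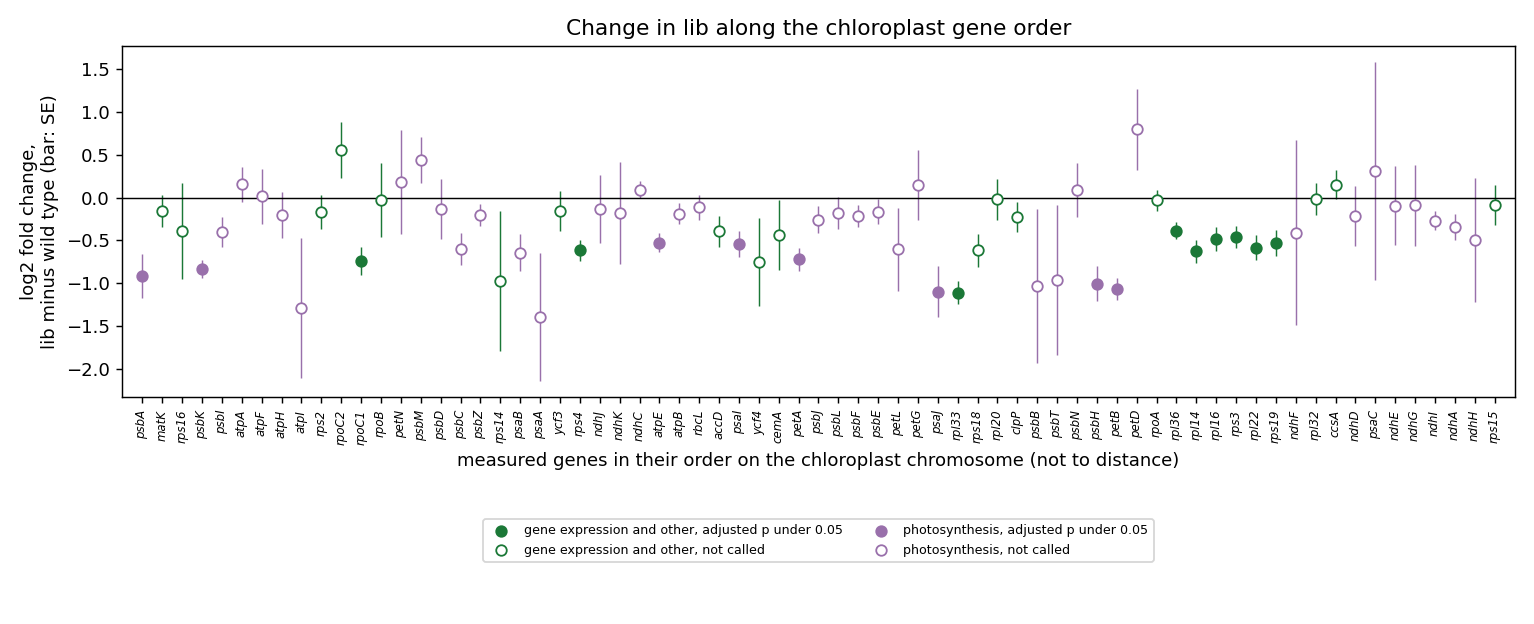
Log2 fold change, lib minus wild type, with its SE as a bar (y) of the 69 chloroplast genes with a probe set of their own in their order on the chromosome (x, equal spacing); green marks the 26 genes described here, purple the photosynthesis genes, and filled points an adjusted p under 0.05. The unbroken row of filled green points from rpl36 to rps19 is the run of ribosomal protein genes, with rpoA at -0.03 beside it.

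None of the 7 genes outside the polymerase and the ribosome was called. The gene matK, for the maturase that helps splice plastid introns, had signals of 214, 281 and 197 in lib and 307, 253 and 211 in the wild type (log2 fold change -0.16, 95% interval -0.58 to 0.27, limma adjusted p = 0.624). The gene clpP, for a catalytic subunit of the Clp protease, had 2425, 1902 and 1464 in lib and 2534, 2243 and 1899 in the wild type (-0.23, 95% interval -0.63 to 0.18, limma adjusted p = 0.428). Both pairs of groups overlapped, and for both genes the interval excludes a 2-fold change. The gene accD, for a subunit of the plastid acetyl-CoA carboxylase that opens fatty acid synthesis, had 154, 172 and 171 in lib and 258, 174 and 229 in the wild type. Its groups were separated only by the small distance between lib replicate 2 and wild type replicate 2, and its log2 fold change was -0.39 (SE 0.18, limma adjusted p = 0.157).

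The genes for assembly and envelope proteins were mostly dim and scattered. The gene ycf4, for an assembly factor of photosystem I, had signals of 47.5, 60.7 and 14.7 in lib and 49.5, 70.4 and 57.7 in the wild type. Its log2 fold change of -0.75 (SE 0.51, limma adjusted p = 0.353) was -0.13 with lib replicate 3 left out. The gene cemA, for a protein of the chloroplast envelope, stood at -0.44 (SE 0.41) and was at 0.03 with lib replicate 3 left out. The gene ycf3, also for a photosystem I assembly factor, stood at -0.16 (SE 0.23), and its sign turned with wild type replicate 1 left out, at 0.04. The gene ccsA, for a protein that attaches haem to c-type cytochromes, was bright and was the only other gene beside rpoC2 on the positive side, at 0.15 (95% interval -0.23 to 0.53), with overlapping arrays (988 to 1317 for lib, 895 to 1350.2 for wild type).

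Calls were made among the brighter genes. The 15 genes with a mean signal above the median of all probe sets held all 9 calls, and the 11 dimmer genes held 0 (at an unadjusted limma p under 0.05 only rps18 among them). Among all 22746 probe sets, 16.8% of the brighter and 3.82% of the dimmer probe sets were lower in lib. The fit draws each error toward that of probe sets of like brightness, and rps15 had an SE of 0.24 beside SDs of 0.03 in lib and 0.08 in wild type. Of the 17 genes without a call, 10 had a 95% interval that lies within a 2-fold change in either direction, and for the other 7 a change of that size remains possible. The arrays of the groups did not overlap for 12 genes with lib below, where 20.2% of all probe sets did so, and for 1 gene, rpoC2, with lib above, against 18.0%. The 12 were the 9 called genes together with rps18, accD and rps15. Replicate 3 had the lowest signal of its group for 15 of the 26 genes in lib and for 15 of the 26 in the wild type. The median signal over all probe sets was the lowest of its group on lib replicate 3. On wild type replicate 3 that median was the highest of its group, so this array was not dim as a whole. How often replicate 3 was lowest over all probe sets was not counted.

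**Figure D5:**
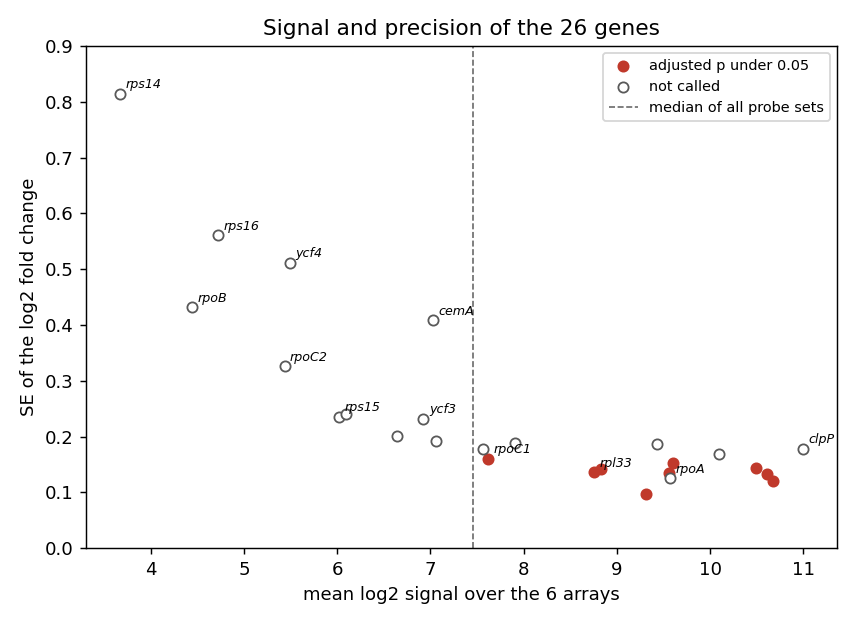
SE of the log2 fold change (y) against the mean log2 signal over the 6 arrays (x) for the 26 genes; filled red points were called lower, and the dashed line is the median of all probe sets. The SE falls from 0.81 for rps14 to 0.10 for rpl36, and all called genes lie right of the line.

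For 12 of the 43 chloroplast-encoded photosynthesis genes all lib arrays lay below all wild type arrays, where 20.2% of all probe sets did so. These genes gave 8 lower and 0 higher of 43 (18.6%), with a median log2 fold change of -0.22. Lower calls made up 10.3% of all probe sets and 16.8% of the brighter ones. By smallest p these were led by petB (-1.07, SE 0.13), psbK (-0.83, SE 0.11) and petA (-0.72, SE 0.13), subunits of the cytochrome b6f complex and of photosystem II. The difference in share from the 26 genes, 34.6% against 18.6%, was not tested. It did not hold without the intensity trend, where 2 of the 26 genes and 5 of the 43 photosynthesis genes were called.

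The nuclear-encoded partners in plastid gene expression were thinly covered by the annotation. A listed gene counted as measured only if its gene identifier tied it to a probe set of its own. A gene left out in this way may still have a probe set on the array. Of 43 listed genes for plastid ribosomal proteins and translation factors 12 had a probe set of their own. Of these 3 fell, 0 rose, and all 12 fold changes were below 0 with a median of -0.38. This 25.0% stands against 10.3% of all probe sets and 16.8% of the brighter ones. PSRP1, a plastid-specific factor that binds the ribosome, was lowest at -0.71 (SE 0.12, limma adjusted p = 0.00346), its lib arrays reading 1235 to 1495 and its wild type arrays 1898 to 2405. RPS6 fell by 0.47 on the log2 scale (SE 0.10, limma adjusted p = 0.0113) and RPL3, whose arrays overlapped between the groups, fell by 0.43 (SE 0.13, limma adjusted p = 0.0483), while RPL5 at -0.36 was not called (limma adjusted p = 0.0570). Of 21 listed genes for RNA processing and stability 3 were measured: CP28A, a chloroplast RNA-binding protein, fell by 0.69 (SE 0.12, limma adjusted p = 0.00434), and CAF1 (0.24) and CFM3A (-0.09), both splicing factors, were not called. For transcription, only RPOTMP of 22 listed genes could be tied to a probe set of its own. RPOTMP, a phage-type polymerase, stood at 1.18 with a wide error (SE 0.75, limma adjusted p = 0.317). Of 17 partners of clpP, accD and ycf1 the measured ones were CLPR3 (-0.28, limma adjusted p = 0.113) and CLPP4 (0.06, limma adjusted p = 0.751), neither called. The mitochondrion-encoded genes were not analysed here, since their identifiers in the annotation did not match those of the gene table.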

How the data were processed

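Total RNA was labelled with a 3′ IVT kit, per the labels' protocols, and the authors made MAS5 signals, per the submitters' processing notes, which give no version. The deposited table holds log2 signals of 22746 probe sets on 6 arrays; its lowest value is 0, a signal of 1. No depth exists for arrays; their number limits the precision. The authors' deposited second table holds 1 unadjusted p-value per probe set and the ratio lib/wild type. Arrays were grouped by title. Probe sets were tied to genes through the platform annotation and the TAIR10.1 gene table by gene identifier; organelle genes were taken by chromosome. Values were used as deposited and fitted over the whole set of probe sets (limma 3.58.1, R 4.3.3, lmFit, eBayes with an intensity trend, 2-sided, Benjamini-Hochberg adjustment). The code was also run on simulated data with independent errors and added changes of at least 2-fold. That run does not bear on the smaller changes called here. Called means an adjusted p under 0.05. No filter on dim probe sets was used, and none of the 26 genes was at the lowest value on any array.

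The members and lists were chosen with earlier results of these data known, so counts over them are descriptions. Array values were to be printed for called members or changes of 2-fold, and for the member of smallest p in each role group without one; in each nuclear list the 4 genes of smallest p and 3 photosynthesis genes were named. Array values of uncalled polymerase and ribosomal genes and of psaJ were added after they were seen. Alternatives were no trend, quantile normalization, median centring, log2(signal + 16), brighter probe sets only, a replicate block, arrays weighted by quality, a threshold of 0.01, 1 array left out at a time, and the deposited p-values.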

Additional observations from a re-analysis of the deposited data

How the results depend on the processing

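The count of 9 lower genes was 9 with quantile normalization, with median centring and for the brighter probe sets alone (where 20.2% of the probe sets fitted were lower), 10 with log2(signal + 16), 8 with array weights (12.1%), and 6 by the deposited unadjusted p-values; it was 2 when no intensity trend was fitted (5.21% of all probe sets), 2 at a threshold of 0.01 (4.72%), and 0 by the authors' deposited p-values after Benjamini-Hochberg adjustment, by which 66 of all probe sets pass. With 1 array left out it ranged from 3 to 8, with fewer arrays in each fit. The count of higher genes was 0 in each setting run. All probe sets of the 26 genes are of the plain type and none is at the floor, so leaving such members out removes no gene and the count of 9 stands by construction, which says nothing about stability. The labels give no shared batch for arrays of the same replicate number. Over all probe sets, deviations from the group means of same-numbered arrays correlated at 0.01, -0.02 and -0.03. These values do not settle whether they were paired. Replicate 3 was the lowest of its group for 15 of the 26 genes in each genotype. The 2 counts were made separately and do not settle it either. With the replicate block 7 genes were lower (7.50% of all probe sets), rps19 and rpl36 losing their calls at 0.0557 and 0.0546. The median of -0.39 ranged from -0.48 to -0.14 with 1 array left out. The whole table's 4708 calls were 2383 without the trend, 2257 at an adjusted p under 0.01, and 2705 to 3747 with 1 array left out. Photosynthesis genes called were 5 without the trend, 4 at 0.01, and 5 to 8 with 1 array left out. For plastid ribosome and translation factors the 3 calls were 5 above the median signal, 6 with array weights, 1 at 0.01, and 2 to 5 with 1 array left out. Partners of clpP, accD and ycf1 had 0 to 1 calls with 1 array left out. Shoot markers called were 0 without the trend and at 0.01, 1 with quantile normalization, centring or log2(signal + 16), and 0 to 1 with 1 array left out; root markers called were 0 without the trend, with centring, with the replicate block, at 0.01 and with each array left out. Some genes without a call changed sign: with quantile normalization rpoB stood at 0.17, rpl32 at 0.013 and rpl20 at 0.031, and with array weights rps16 stood at 0.072, rpl32 at 0.039 and rpl20 at 0.050. With 1 array left out the ranges were -0.14 to 0.083 for rpoA, -0.29 to 0.20 for rpoB, -0.22 to 0.11 for rpl32, -0.12 to 0.072 for rpl20, -0.77 to 0.18 for rps16, -0.72 to 0.030 for cemA and -0.32 to 0.035 for ycf3. The cause of these changes was not tested.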

Other observations

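Chloroplast genes that lie in the inverted repeat have 2 entries in the annotation and were therefore not among the 26 genes. Outside the photosynthesis prefixes 7 probe sets are of this kind. Of these, 2 were called lower (28.6%) and 0 higher, against 10.3% and 10.4% of all probe sets. Their log2 fold changes ran from -0.81 to 0.16 with a median of -0.32. For 5 of the 7, all lib arrays lay below all wild type arrays, where 20.2% of all probe sets did so.

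In the authors' deposited table, 6 of the 26 genes have an unadjusted p under 0.05 with a ratio below 1 and 0 with a ratio above 1, where 12.0% of all probe sets have such a p with a ratio below 1. In the authors' deposited table rpl33 has a ratio of lib to wild type of 0.459 with a p of 0.0103. In the authors' deposited table rps18, which missed the threshold of limma, has a ratio of 0.653 with a p of 0.0198, and rps19, which passed it, has a ratio of 0.704 with a p of 0.108.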
